A study of Mus musculus with 7 samples.

Results

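MiRNAs are numbered in the order in which they were submitted to the public registry, so the highest numbers on an array are entries that came mostly from deep sequencing of small RNA. The miRNAs described here are those with a number of 1000 or more in a name that starts with mmu-miR, whatever suffix follows the number, apart from a run of numbers and 1 further number that the rule leaves out. There are 103 of them among the 696 mouse miRNAs of the array, and 77 carry no suffix. They are called late-numbered below. Total RNA came from kidneys of male C57BL/6 mice aged 9 to 12 weeks by their labels, collected 28 days after the left ureter was either tied off (unilateral ureteral obstruction, UUO) or only exposed (sham). All mice were anaesthetised with pentobarbital. 4 arrays carry the group label non-treated (replicates 1, 2, 3 and 4) and 3 the label treated (replicates 1, 3 and 4). The labels do not say which of these operations each word stands for, and the title of the record names sham kidneys. They are called treated and non-treated arrays here as names of the labels alone, and every difference is treated minus non-treated. For miR-1939 this direction is the opposite of the one the paper prints for obstructed over sham. The same holds for the other miRNAs of the paper's list. For example, miR-21 (log2 difference -2.18 here) is printed as raised by obstruction, and miR-192 (3.24 here) as lowered. Which arrays are obstructed was not settled. Nothing in the record ties an array to a named animal, and the p-values measure the spread between these arrays.

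As background, a miRNA is cut from a hairpin precursor and steers a silencing complex to mRNAs that pair with its seed, bases 2 to 8. Entries from the sequencing era are often rare, restricted to a tissue, or derived from other RNA classes. MiR-1224 is a mirtron, a hairpin spliced out as a short intron. MiR-1839 is processed from a small nucleolar RNA. MiR-1937 and miR-1274 overlap transfer RNA, and miR-3072 lies in the imprinted Dlk1-Dio3 region.

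The mature sequences of detected late-numbered miRNAs are shown where RefSeq (build GRCm38.p6) lists the array's name, so that the base make-up and the seeds can be read beside the signals. Capitals mark the seed. 8 of the 22 that were detected at least once matched by name. MiR-1906 has copies on 2 chromosomes, and its first is given.
miR-1198-5p: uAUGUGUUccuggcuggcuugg
miR-1904: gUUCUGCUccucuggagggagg
miR-1187: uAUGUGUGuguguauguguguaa
miR-1839-5p: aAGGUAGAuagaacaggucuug
miR-1895: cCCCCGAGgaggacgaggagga
miR-1892: aUUUGGGGacgggagggaggau
miR-2861: gGGGCCUGgcggcgggcgg
miR-1906: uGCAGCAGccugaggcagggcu

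In the order listed they lie at chrX:7807142-7807163 (+), chr13:109903819-109903840 (+), chr5:82798964-82798986 (-), chr7:81529919-81529940 (+), chr3:134240515-134240536 (-), chr12:54645943-54645964 (-), chr2:32712819-32712837 (-) and chr12:109544588-109544609 (+). MiR-1198-5p lies within the span of the protein-coding gene Gripap1, miR-1904 within Pde4d, miR-1895 within Cxxc4 and miR-1892 within Sptssa. The other 4 lie within no protein-coding gene of the table. The G and C content ran from 34.8% in miR-1187, a UG repeat, to 94.7% in miR-2861. MiR-1892 was 54.5% G, miR-2861 68.4% G and miR-1895 45.5% G. No 2 of these sequences share a seed. The array names miR-1224 and miR-3072* give no arm, so both RefSeq arms are shown for each.
miR-1224-5p: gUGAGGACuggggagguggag
miR-1224-3p: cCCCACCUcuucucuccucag
miR-3072-5p: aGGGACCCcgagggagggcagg
miR-3072-3p: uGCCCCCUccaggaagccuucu

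The arms of miR-1224 lie at chr16:20604452-20604472 (+) and chr16:20604516-20604536 (+), within the span of Vwa5b2, and those of miR-3072 at chr12:109747893-109747914 (+) and chr12:109747928-109747949 (+). Fewer than 80% of the late-numbered miRNAs had a sequence by name, so a comparison of base content over the group is void and is not reported. The remaining detected names, miR-1939, miR-1897-5p, miR-1274a, miR-1937b, miR-1937c, miR-1839-3p, miR-3470a, miR-1944, miR-1949, miR-1927, miR-3099 and miR-1982*, had no entry under the array's name.

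The arrays are 1-colour Agilent arrays, whose spot intensities after background subtraction were averaged for each probe and then added up for each miRNA. The 4 non-treated arrays were brighter than the 3 labelled treated. The 75th percentile of total signal was between 6.91 and 14.9 on the former, with 6.91 on replicate 3, and between 2.78 and 4.80 on the latter. The mean background was between 18.6 and 20.6 on the non-treated arrays and between 19.8 and 20.0 on the treated arrays. Kidney tubule markers fixed for this work (miR-192, miR-194, miR-215, miR-204 and miR-30a) were detected on all arrays in 4 of 5 cases, and miR-215 on none. Their summed log2 signal was between 10.66 and 10.94 on the non-treated arrays and between 12.4 and 12.5 on the treated arrays. This sum follows the abundant members: miR-192, miR-194 and miR-30a were higher on the treated arrays, and miR-204 was lower, with a log2 difference of -0.56. For 5 white blood cell markers these ranges were 10.40 to 10.71 and 8.33 to 8.37, and for 4 mesenchymal markers 11.1 to 11.3 and 8.69 to 8.74. The 2 red cell markers on the array ranged from 10.1 to 11.2 and from 12.2 to 12.3. The 3 striated muscle markers ranged from 3.69 to 5.16 and from 3.54 to 3.63, with miR-206 detected on no array. The part that a shift in cell types has in the results below was not tested, and in bulk RNA fewer cells of a type and less RNA per cell cannot be told apart.

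Most late-numbered miRNAs gave no signal that Agilent's software called detected. Of the 103, 14 were detected on all 7 arrays, 8 on some arrays and 81 on none. These are 13.6%, 7.77% and 78.6%, against 29.0%, 16.2% and 54.8% of the other 593 miRNAs. The highest summed signal of an undetected entry was 5.50 intensity units, for miR-1196, and the median over these entries and all arrays was -0.264, that is, at background. For 16 of the 81 at least 1 spot on 1 array was well above background. In 5 consecutive blocks of numbers, from the lowest to the highest, 2 of 14, 2 of 3, 5 of 12, 9 of 61 and 4 of 13 late-numbered miRNAs were detected at least once.

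The number of late-numbered miRNAs detected was 20, 22, 17 and 20 on the non-treated arrays (replicates 1, 2, 3 and 4) and 16, 18 and 15 on the treated arrays (replicates 1, 3 and 4). The mean was 19.8 ± 2.06 (SD, n = 4) against 16.3 ± 1.53 (SD, n = 3), and the groups overlapped, since treated replicate 3 lay above non-treated replicate 3. An exact 2-sided permutation test over the 35 splits of the arrays gave p = 0.114. The other miRNAs were detected in 240.5 ± 19.1 (SD, n = 4) and 187 ± 9.00 (SD, n = 3) cases, without overlap (exact permutation p = 0.0571, the smallest value possible with 4 and 3 arrays, which keeps every such test above 0.05). In percentage points the gap between late-numbered and other miRNAs was -21.4 ± 1.31 (SD, n = 4) on the non-treated arrays and -15.7 ± 0.287 (SD, n = 3) on the treated arrays, and this change in the gap had an exact permutation p = 0.0571. As a ratio, the detected share of late-numbered over other miRNAs was 0.472 ± 0.0149 (SD, n = 4) and 0.502 ± 0.0233 (SD, n = 3), with overlap (exact permutation p = 0.114).

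**Figure D1:**
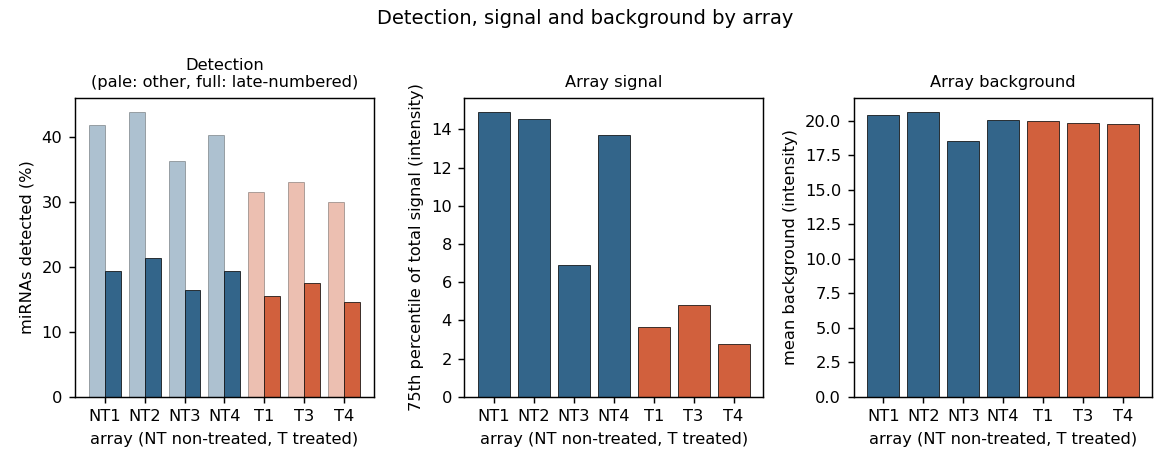
Detection, signal and background on each array (NT, labelled non-treated; T, labelled treated; the digit is the replicate). Left, percent of the 593 other miRNAs (pale bars) and of the 103 late-numbered miRNAs (full bars) called detected; middle, 75th percentile of total signal; right, mean local background, both in intensity units. Late-numbered miRNAs were detected in 14.6% to 21.4% of cases, signal was lower on the 3 treated arrays, and background lay between 18.6 and 20.6 on all arrays.

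By the 75th percentile of total signal, the array with the most detected late-numbered miRNAs in each group was not always the brightest. Non-treated replicate 2 had 22 of them at a total signal of 14.5, and replicate 1 had 20 at 14.9. By the mean log2 signal over miRNAs that every array detected, replicate 2 was the brightest of its group at 7.52. Replicates 1 and 4 stood at 7.40 and replicate 3 at 6.65. Non-treated replicate 3 was the dimmest of its group and had the fewest. Among the treated arrays the order of detection (15, 16 and 18) was that of total signal (2.78, 3.63 and 4.80). It was also that of the mean log2 signal (5.79, 6.05 and 6.42). The arrays fall into separate clusters of 4 and 3 by label, so no correlation over them was computed, and the part of array brightness in the difference in detection cannot be told apart from the label.

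The test of the labels covered every miRNA detected on each array of at least 1 group, 236 in all and 18 of them late-numbered. 14 of these 18 were detected on all arrays. MiR-1198-5p entered through the treated arrays, and miR-1187, miR-3470a and miR-1892 through the non-treated arrays. Signals were scaled to the mean log2 signal over the 186 miRNAs that every array detected, raised to a floor of 2.49 (1.32 on the log2 scale) and tested with limma. Scaling multiplied dim arrays up, so the lowest detected signal became 1.99 to 2.49 on the non-treated arrays and 5.34 to 6.71 on the treated arrays.

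Of the 18 late-numbered miRNAs tested, 10 passed a limma adjusted p below 0.01, where 61.0% of all 236 passed. On the treated arrays 4 were higher and 6 lower, where 26.3% and 34.7% of all tested were. Of the 14 detected on all arrays 8 passed, 3 higher and 5 lower, where 59.1% of the 186 such miRNAs passed, with 29.6% in each direction. The median log2 difference over the 14 was -0.26, from -1.46 to 2.55, beside -0.02 over the 186. The groups did not overlap for 12 of the 18, where this held for 71.6% of all tested. For each of these 12 the exact 2-sided permutation p was 0.0571. With this scaling the share that passed was near that of the array at large. Without scaling 15 passed, 1 higher and 14 lower, where 175 of all 236 passed, 8 higher and 167 lower. The 3 that did not pass then were miR-1198-5p, miR-1904 and miR-1897-5p. The median log2 difference of all tested was then -1.22 in place of -0.13, so all differences below are relative to the middle that the scaling sets. In the value table without treated replicate 4, 3 of 19 late-numbered miRNAs passed, where 94 of 239 did.

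**Figure D2:**
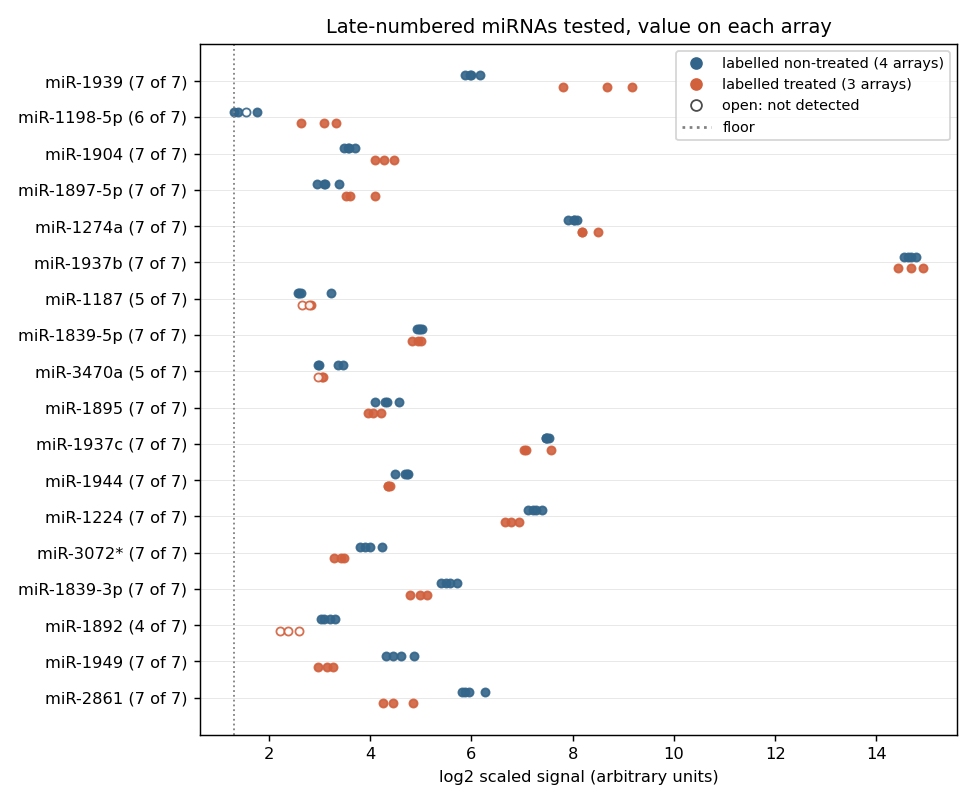
Log2 scaled signal of the 18 late-numbered miRNAs tested, 1 point for each array, with the number of arrays that detected each beside its name. Filled points were called detected and open points were not; the dotted line is the floor at 1.32. MiR-1939 stood from 7.81 to 9.18 on the treated arrays and from 5.87 to 6.17 on the non-treated arrays; levels of different miRNAs are not comparable, because probes bind with different strength.

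MiR-1939 rose most. Its log2 signal was 5.97, 5.87, 6.00 and 6.17 on the non-treated arrays and 8.67, 7.81 and 9.18 on the treated arrays. All 3 of the latter lay above all 4 of the former. The log2 difference was 2.55 (standard error 0.28, limma adjusted p = 5.19e-05), a fold of 5.87. Its 2 probes gave 2.61 and 2.54, and both were well above background on all 7 arrays. Before scaling, Agilent's total signal was 63.1, 65.1, 38.5 and 73.8 on the non-treated arrays and 161, 115 and 198 on the treated arrays, so the dimmer arrays gave the brighter miR-1939. Unscaled, the log2 difference was 1.40. MiR-1939 was past the threshold under every alternative tried, from 1.31 to 2.92. Its spread among the treated arrays was 0.69 (SD, n = 3), where the median over all 186 was 0.0887.

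MiR-1198-5p, miR-1904 and miR-1897-5p were also higher on the treated arrays after scaling, all at low signal. MiR-1904, with its G-rich 3′ end shown above, had a log2 signal of 3.57, 3.48, 3.58 and 3.70 on the non-treated arrays and 4.47, 4.09 and 4.28 on the treated arrays. The groups did not overlap, and the log2 difference was 0.70 (standard error 0.11, limma adjusted p = 4.20e-04), with 0.73 and 0.64 by probe. Agilent's total signal before scaling was 12.0, 12.4, 7.2 and 13.3 against 8.72, 8.70 and 6.63, and the log2 difference turned to -0.46 without scaling and to -0.26 with scaling by spike-in controls. It was no longer past the threshold at 0.45 with the 75th percentile of miRNAs that every array detected, or at 0.19 with the mean over all miRNAs. The same held with the authors' value table (0.68) and with that table without treated replicate 4 (0.47).

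MiR-1897-5p had a log2 signal of 3.08, 2.95, 3.39 and 3.1 against 3.61, 3.53 and 4.09, without overlap. Its log2 difference was 0.61 (standard error 0.16, limma adjusted p = 0.00822), which turned to -0.54 without scaling and to -0.34 with spike-in scaling. It was no longer past the threshold without non-treated replicate 1 (0.60), 2 (0.55) or 4 (0.60), or without treated replicate 1 (0.68) or 4 (0.46), nor with the replicate number as a block (0.55).

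MiR-1198-5p was detected on 3 of 4 non-treated arrays and on all 3 treated. Its log2 signal was 1.32, 1.39, 1.54 and 1.77 against 3.09, 2.64 and 3.32, a difference of 1.51 (standard error 0.17, limma adjusted p = 7.10e-05) that depends on the floor, where 1 array lay. Agilent's total signal before scaling was 2.40, 3.01, 0.1 and 3.11 against 3.31, 3.30 and 3.51, between 2.40 and 3.51 on the 6 arrays that detected it, and its strongest probe was well above background on 2 of 7 arrays. With the floor at 6.71, the highest of the arrays' lowest detected signals (an alternative added after seeing the data), the log2 difference was 0.30 and not past the threshold. It was also not past it without scaling (0.30) or with spike-in controls (0.50). MiR-1198-5p entered the test through the group where it was high, so its p is no support for a difference.

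MiR-2861 and miR-1949 fell most. MiR-2861, known from osteoblast differentiation and made mostly of G and C as its sequence shows, had a log2 signal of 5.87, 5.82, 6.27 and 5.96 on the non-treated arrays and 4.84, 4.26 and 4.45 on the treated arrays. The groups stood about 1 log2 unit apart at their nearest arrays. The log2 difference was -1.46 (standard error 0.16, limma adjusted p = 5.75e-05), and both probes gave nearly the same, -1.46 and -1.47. Agilent's total signal was 59.1, 63.1, 46.3 and 64.1 against 11.3, 9.79 and 7.47.

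MiR-1949 had a log2 signal of 4.31, 4.60, 4.46 and 4.86 against 3.27, 3.15 and 2.98. Every treated array was lower, and the log2 difference was -1.43 (standard error 0.14, limma adjusted p = 3.07e-05). Its signal on the treated arrays was low. Agilent's total signal before scaling was 20.0, 27.1, 11.5 and 29.8 against 3.16, 3.97 and 2.36. The 2 probes were well above background on 2 and 5 of 7 arrays. Both miRNAs kept this direction with each scaling between arrays and with each array left out. With normexp background correction, which adds 50 units to each spot, miR-2861 was at -0.13 and miR-1949 at 0.18, neither past the threshold. The authors' value table holds 1 spot per probe, and in its column of treated replicate 4 error estimates. Without that column miR-2861 was at -1.44 (limma adjusted p = 0.00802) and miR-1949 at -2.10 (limma adjusted p = 3.67e-04), both past the threshold, and with it at -1.34 and -1.43, not past it.

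MiR-1892 was detected on all 4 non-treated arrays and on none of the treated. With the scaling used here it was 1.49-fold higher on the non-treated arrays when treated arrays count as follows. Each counts at its own signal or at its weakest detected signal, whichever is higher. This is no strict minimum, since undetected miRNAs can lie above the weakest detected signal, as miR-3470a did on treated replicate 4 (2.98 against 2.75). The log2 difference as tested was -0.76 (standard error 0.11, limma adjusted p = 3.49e-04). Its log2 signal was 3.09, 3.20, 3.30 and 3.03 against 2.59, 2.22 and 2.38. This is a G-rich sequence, as printed above. Agilent's total signal was between 5.93 and 10.2 on the non-treated arrays and at the software's lowest value of 0.1 on the others. MiR-1892 entered the test through the group where it was high, so its p is no support for a difference. The log2 difference also moved with the processing. It was -0.41 with the added floor described above, -0.39 with quantile normalization and -0.20 with the value table without treated replicate 4. In the last 2 it was not past the threshold. The sign turned with the whole value table (0.34) and with normexp (0.21), neither past the threshold.

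MiR-1187, the UG repeat, and miR-3470a were each detected on all 4 non-treated arrays and on 1 of 3 treated, replicate 3, the brightest of its group. MiR-1187 had a log2 signal of 2.64, 2.59, 3.22 and 2.57 against 2.65, 2.83 and 2.79. The groups overlapped, and neither miRNA passed the threshold with this scaling. MiR-3470a had 3.36, 2.99, 2.98 and 3.46 against 3.06, 3.04 and 2.98. For both, Agilent's total signal before scaling was at its lowest value of 0.1 on treated replicates 1 and 4. With that signal miR-1187 was at -1.515 and miR-3470a at -1.74, both past the threshold. Both also passed without scaling (-1.16 and -1.33) and with spike-in controls (-0.96 and -1.13), and miR-3470a with the mean over all miRNAs (-0.68). The sign turned in 8 and 5 of 25 alternatives, none past the threshold.

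The mirtron miR-1224 fell slightly after scaling. Its log2 signal was 7.21, 7.11, 7.40 and 7.27 on the non-treated arrays and 6.94, 6.66 and 6.79 on the treated arrays, close together but without overlap. The log2 difference was -0.45 (standard error 0.10, limma adjusted p = 0.00417), and the probes gave -0.82 and -0.37. It was no longer past the threshold without non-treated replicate 4 (-0.44), treated replicate 3 (-0.38) or treated replicate 4 (-0.42), nor with the replicate number as a block (-0.50, limma adjusted p = 0.0158). It was also not past it at -0.20 with scaling by the 75th percentile of all miRNAs, or at -0.40 with quantile normalization. The same held with Agilent's total signal (-0.41) and with its strongest probe alone (-0.37). With the value table it was at -0.57, and at -0.44 without treated replicate 4, neither past the threshold.

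MiR-3072* of the imprinted Dlk1-Dio3 region had a log2 signal of 4.00, 3.80, 4.23 and 3.89 against 3.42, 3.29 and 3.48. The groups did not overlap, and the log2 difference was -0.58 (standard error 0.12, limma adjusted p = 0.00190). Without treated replicate 3 it was -0.53 and not past the threshold (limma adjusted p = 0.0106), and it was at -0.33 and -0.34, not past it, with the 75th percentile of all miRNAs and with quantile normalization. MiR-3072, its partner strand on the array, was detected on no array.

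The arms of miR-1839, the small nucleolar RNA product, differed. MiR-1839-3p had a log2 signal of 5.40, 5.49, 5.72 and 5.58 on the non-treated arrays and 5.13, 4.78 and 4.99 on the treated arrays, a difference of -0.58 (standard error 0.11, limma adjusted p = 0.00174) with -0.57, -0.56 and -0.59 by probe. MiR-1839-5p had 4.97, 4.93, 4.98 and 5.02 against 4.95, 4.82 and 5.01, with overlap and a difference of -0.05 (standard error 0.079, limma adjusted p = 0.597). The 3p signal minus the 5p signal was 0.43, 0.56, 0.74 and 0.56 against 0.18, -0.04 and -0.02. It does not depend on a scaling by 1 factor per array, but can move with quantile normalization or another signal or background method. This gap was smaller on every treated array, with a change of -0.53 (exact permutation p = 0.0571); the pair was chosen after its values were seen. With quantile normalization miR-1839-3p was at -0.25 and miR-1839-5p turned to 0.27 and was past the threshold, and with the 75th percentile of all miRNAs they were at -0.34 and 0.20. MiR-1839-3p was not past the threshold in either, nor with the replicate block (-0.60). The same held with the value table (-0.48) and with that table without treated replicate 4 (-0.60).

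The entries that overlap transfer RNA did not pass the threshold with this scaling, and each of them passed it with some other. MiR-1937b had a log2 signal of 14.68, 14.54, 14.78 and 14.62 on the non-treated arrays and 14.69, 14.92 and 14.42 on the treated arrays. The groups overlapped, with a difference of 0.02 (standard error 0.13, limma adjusted p = 0.889) that was below 0 at -0.22 with the 75th percentile of miRNAs every array detected and at -0.49 with the mean over all miRNAs, and past the threshold at -1.13 without scaling. Agilent's total signal of miR-1937b was 26500, 26500, 16900 and 25900 against 10500, 15900 and 7480, lower on every treated array before scaling.

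MiR-1937c had 7.54, 7.47, 7.49 and 7.47 against 7.08, 7.57 and 7.04, a difference of -0.27 (standard error 0.13, limma adjusted p = 0.105). Treated replicate 3 lay above all non-treated arrays and the other 2 below, and without it the difference was -0.43 and past the threshold (limma adjusted p = 0.00279). It was also past it at -0.51 with the 75th percentile of miRNAs that every array detected and at -0.77 with the mean over all miRNAs. MiR-1274a had 8.03, 7.90, 8.03 and 8.08 against 8.18, 8.50 and 8.18, a difference of 0.28 (standard error 0.10, limma adjusted p = 0.0437) that rose to 0.52, past the threshold, when scaled by the 75th percentile of all miRNAs (limma adjusted p = 0.00311). It turned to -0.23 with the mean over all miRNAs, not past the threshold, and to -0.88 without scaling and -0.68 with spike-in controls, both past it. All 3 of these miRNAs had their highest value of the group on treated replicate 3, the array where miR-1939 had its lowest. MiR-1937b and miR-1937c have near-identical names, and how far their probes bind each other's target is not known from the files.

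Of the 2 remaining late-numbered miRNAs detected on all arrays, miR-1944 had a log2 signal of 4.5, 4.72, 4.68 and 4.75 against 4.36, 4.36 and 4.39. The groups lay close together without overlap, and the difference of -0.29 (standard error 0.086, limma adjusted p = 0.0157) was past the threshold without non-treated replicate 1, at -0.35, and with the 75th percentile of miRNAs that every array detected, at -0.54. It was 0.00106 with quantile normalization. MiR-1895, rich in G and C as printed above, had 4.34, 4.29, 4.58 and 4.09 against 4.22, 3.95 and 4.05, with overlap and a difference of -0.25 (limma adjusted p = 0.113).

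**Figure D3:**
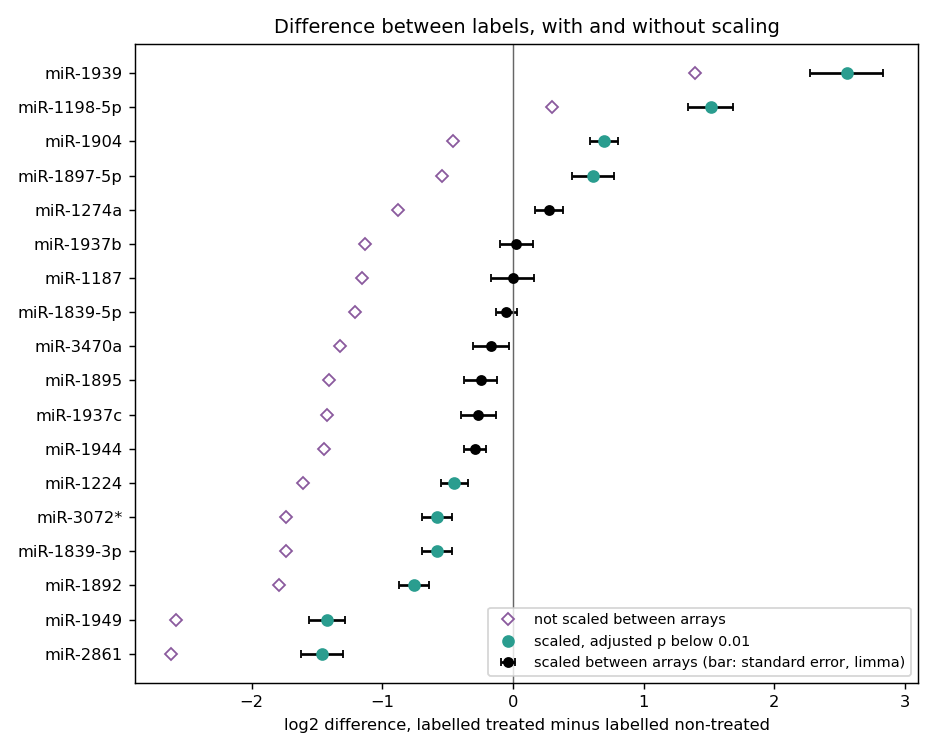
Log2 difference between the labels (treated minus non-treated) for the 18 late-numbered miRNAs tested. Round points are scaled between arrays, with limma's standard error as bars and green for a limma adjusted p below 0.01; open diamonds are not scaled. Without scaling, 2 of the 18 (miR-1939 at 1.40 and miR-1198-5p at 0.30) stayed above 0, and miR-1904, miR-1897-5p, miR-1274a and miR-1937b moved from above 0 to below it.

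4 late-numbered miRNAs were detected on some arrays and not tested. MiR-1927 was detected on 3 of 4 non-treated arrays and 2 of 3 treated, with log2 signals of 2.29, 3.18, 2.20 and 3.59 against 3.57, 4.33 and 2.91. These values overlapped widely. MiR-3099 was detected on non-treated replicates 2 and 4, miR-1906 on non-treated replicates 1 and 2, and miR-1982* on non-treated replicate 2 alone; these 3 are named after their values were seen.

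The replicate spread of the late-numbered miRNAs was compared at like signal, as a description. Over the 14 detected on all arrays, the median SD of log2 signal was 0.124 on the non-treated arrays and 0.182 on the treated arrays, beside 0.136 and 0.0887 over all 186. Most of the 14 lay in the lower part of the range of signals. With signals split into 4 bins of like size, in the lowest bin the median pooled SD was 0.167 for 6 late-numbered and 0.149 for 41 other miRNAs. In the bin above it was 0.153 for 3 and 0.157 for 43, and in the next 0.160 for 4 and 0.121 for 42. The highest bin held miR-1937b alone, with 0.177 against 0.105 for 46 others. On the treated arrays the SD ran from 0.0189 for miR-1944 to 0.69 for miR-1939.

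**Figure D4:**
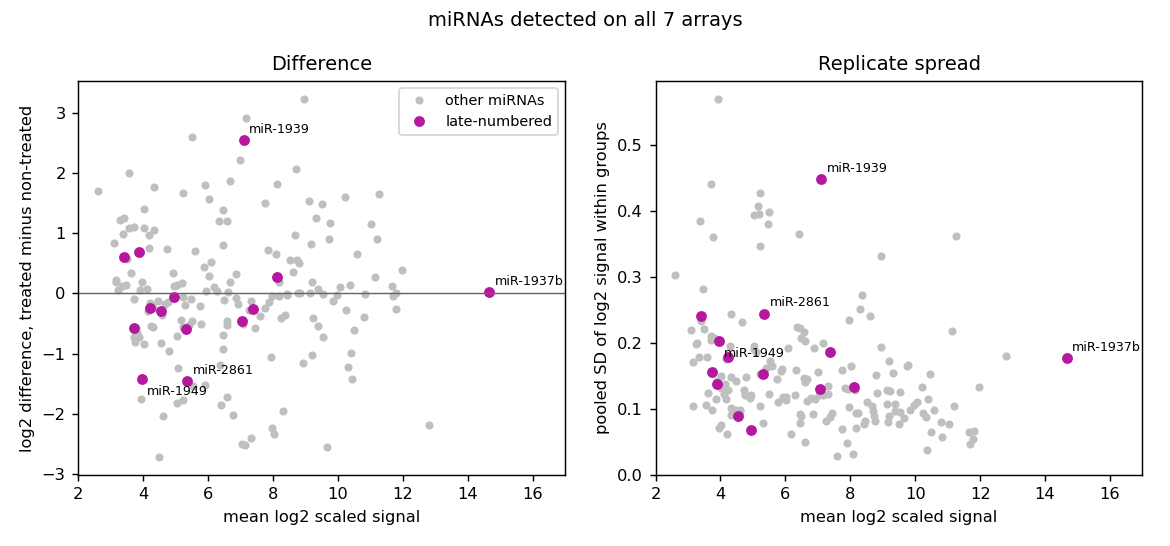
The 186 miRNAs detected on all 7 arrays, by mean log2 scaled signal; late-numbered miRNAs are coloured and the others grey. Left, log2 difference between the labels (treated minus non-treated); right, SD of log2 signal within groups, pooled over both. MiR-1939 stood at a difference of 2.55 and the remaining late-numbered miRNAs between -1.46 and 0.70. All lay within the range of the others, from -2.72 to 3.24.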

How the data were processed

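7 kidney RNA samples were hybridized to 1-colour Agilent arrays (13920 spots, 1937 probes), all on 1 slide in 1 scan. The labels name an extraction kit for fixed tissue, and the paper's methods another for tissue. Per the file headers and labels, the deposited files come from Agilent Feature Extraction 10.7.3.1 and hold background-subtracted spot intensity on a linear scale, not normalized between arrays. A deposited value table holds the intensity of the first spot per probe, and for treated replicate 4 the error of that intensity instead. Here spots without outlier flags were averaged per probe, summed per miRNA, scaled to the mean log2 signal over miRNAs that every array detected, floored at the median of the arrays' lowest detected signals and taken as log2. No spot was saturated. limma 3.58.1 in R 4.3.3 was fitted over all 236 miRNAs tested, with Benjamini-Hochberg adjustment and a threshold of 0.01. The paper also took log2 values and normalized them to the mean of each array. Of the test itself only the number 0.01 is shared with the paper. Its methods give a t-test and name no adjustment, and a figure caption names a Bonferroni adjustment. Named are all late-numbered miRNAs that were tested, and those detected on at least 3 arrays. The miRNAs, lists and tests were chosen with earlier results of these data known. Steps were tested on simulated data. The number of arrays limits the precision. Replicates were taken as separate samples as labelled. They differed by at least 1.34 times what their spots would give, which does not tell separate RNA from repeat hybridizations. Alternatives covered scaling, signal, background, probes, filter, floor, test, threshold, block and each array left out.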

Additional observations from a re-analysis of the deposited data

Results flagged for a closer look

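Of 24 measures looked at on the 4 non-treated arrays, 3 had 1 array far from the other 3, where chance gives 5%. The 2 measures of array signal are related to each other, and the third is a value scaled by 1 of them. They are therefore not 3 separate observations. All were values of non-treated replicate 3. Its total signal had a 75th percentile of 6.91, beside 13.7 to 14.9. Over miRNAs that every array detected, its mean log2 signal was 6.65, beside 7.40 to 7.52. Its scaled log2 signal of miR-1187 was 3.22, against 2.57 to 2.64. Agilent's total signal of miR-1187 before scaling was 5.60 on it, against 6.10 to 6.69. Without this array 10 of 19 late-numbered miRNAs passed (4 higher, 6 lower), where 157 of all 257 tested did (61 higher, 96 lower), and the log2 difference of miR-1187 was 0.13 in place of -0.0018.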

How the results depend on the processing

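The floor at the highest of the arrays' lowest detected signals and the ratio of detected shares were added after seeing the data. Of 18 late-numbered miRNAs tested 10 passed, 4 higher and 6 lower. Over all 236 tested, 62 were higher and 82 lower. Each pair of counts below, higher and lower, is followed by that over all tested. With the value table they were 1 and 0, beside 34 and 27, so 1 late-numbered miRNA passed, miR-1939. With that table without treated replicate 4 they were 1 and 2, in all 3 of 19, beside 46 and 48 of 239. These 3 were miR-1939, miR-1949 and miR-2861. With Bonferroni adjustment they were 2 and 2, in all 4, beside 39 and 45. They were 2 and 8, beside 50 and 104, with the 75th percentile of miRNAs that every array detected, and 5 and 3, beside 76 and 61, with that of all miRNAs. They were 2 and 11, beside 37 and 124, with the mean over all miRNAs, and 5 and 2, beside 64 and 65, with quantile normalization. They were 1 and 14, beside 8 and 167, without scaling, and 1 and 14, beside 18 and 171, with spike-in controls. They were 5 and 2, beside 89 and 53, with normexp, and 2 and 7, beside 56 and 73, with the added floor. With each array left out they were 3 to 4 and 5 to 7, in all 8 to 10. The median pooled SD over the 14 was 0.341 without scaling and 0.326 with the value table, and 0.129 to 0.177 with an array left out. The fall in detected late-numbered miRNAs was between -4.33 and -2.67 with an array left out, and the change of the gap to the others 5.34 to 6.25 points.

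The sign changed as follows. With the 75th percentile of miRNAs that every array detected miR-1937b was -0.22. With that of all miRNAs, miR-1187 was 0.25, miR-1839-5p 0.20 and miR-3470a 0.078. With the mean over all miRNAs, miR-1274a was -0.23 and miR-1937b -0.49. With quantile normalization, miR-1187 was 0.33, miR-1839-5p 0.27, miR-1944 0.00106 and miR-3470a 0.056. Without scaling, miR-1274a was -0.88, miR-1897-5p -0.54, miR-1904 -0.46 and miR-1937b -1.13, and with spike-in controls -0.68, -0.34, -0.26 and -0.93. With Agilent's total signal miR-1839-5p was 0.010. With the value table, miR-1187 was 0.79, miR-1839-5p 0.15, miR-1892 0.34, miR-1895 0.061, miR-1937b -0.16 and miR-3470a 0.46. Without its column of treated replicate 4, miR-1187 was 0.13, miR-1839-5p 0.0092, miR-1937c 0.11 and miR-3470a 0.018. With normexp, miR-1187 was 0.22, miR-1274a -0.086, miR-1839-3p 0.21, miR-1839-5p 0.34, miR-1892 0.21, miR-1895 0.26, miR-1937b -0.59, miR-1944 0.28, miR-1949 0.18, miR-3072* 0.23 and miR-3470a 0.23. With an array left out, miR-1187 ran from -0.063 to 0.13, miR-1839-5p from -0.073 to 0.0020 and miR-1937b from -0.099 to 0.18. Causes were not tested.

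Arrays of the same replicate number deviated from their group means with correlations of 0.049, -0.089 and 0.14. The non-treated array nearest to treated replicates 1, 3 and 4 in these deviations was replicate 3, 2 and 4. These values give no clear sign that the numbers pair the arrays, and so few arrays cannot exclude it. With the replicate block, over numbers 1, 3 and 4, 7 late-numbered miRNAs passed, 3 higher and 4 lower, beside 57 and 67 over all 236, and miR-1937b was -0.016. The calls of miR-1224, miR-1839-3p and miR-1897-5p (0.55) were lost, and no other call changed.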

Other observations

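The value table deposited by the authors had column medians of 0.420, 0.509, 0.447 and 0.321 for non-treated replicates 1, 2, 3 and 4, and 0.311, 0.263 and 1.0 for treated replicates 1, 3 and 4. It is on the linear scale of the scanner, with no centring, and the last column holds error estimates.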
